A study of Mus musculus with 9 samples.

Results

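Peri-infarct heart tissue of mice injected with exosomes from cardiomyocytes (iCM-Ex) was compared with that of mice injected with the cardiomyocytes themselves (iCM), over all named genes of a microarray. The comparison used 6 of the 9 arrays of the series, 3 iCM-Ex and 3 iCM, chosen by the injected material given in their titles, and covered 19505 genes. The remaining 3 arrays came from hearts injected with saline. They served to locate each difference, that is, to show whether the iCM or the iCM-Ex group lay away from saline. They also entered the estimate of the spread behind every p-value. All 3 groups were female SCID mice, 80 to 100 days old, with an acute infarct made by tying the left anterior descending coronary artery. Hearts were taken 4 weeks after the infarct, and the infarct core and the remote zones were cut away. The iCMs were differentiated from induced pluripotent stem cells (iPSCs) and cultured until they beat, and the iCM-Ex were precipitated from iCMs. The labels name neither the species of the iPSCs nor the doses nor the mouse behind each array. The p-values therefore measure the spread between these samples, which may be in part technical.

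Exosomes are small vesicles that cells release from their endosomes, with membrane proteins, mRNAs and microRNAs of the parent cell. Cells injected into an infarcted heart can act through what they secrete as well as through their own contraction, so that injecting vesicles alone separates the secreted material from the cells. The tissue bordering an infarct holds surviving cardiomyocytes, scar-forming fibroblasts, macrophages and regrowing vessels. SCID mice lack mature T and B lymphocytes but keep macrophages, neutrophils and natural killer cells. In such bulk tissue, fewer cells of a type and less RNA per cell cannot be told apart.

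Signals are given on the log2 scale, on which a step of 1 is a doubling, and differences are iCM-Ex minus iCM unless another pair is named. Cardiomyocyte transcripts were high on all 9 arrays, with the myosin light chain Myl2 at 19.05 or more and the troponin Tnnt2 between 18.63 and 19.80. The lymphocyte genes Cd3e, Cd3d and Ms4a1 lay between 3.08 and 4.86, under the median of all genes (5.63). Some arrays also carried signals of other tissues, and these stood apart from the rest. iCM replicate 1 and iCM-Ex replicate 3 held lung transcripts: the surfactant gene Sftpc read 19.53 and 18.09 there, 11.02 on iCM replicate 2, and 4.82 to 6.83 on the other 6 arrays. iCM replicate 2 held skeletal muscle and fat transcripts, with the fast myosin Myh4 at 15.77 and the adipocyte hormone Adipoq at 12.75. Immediate early genes were highest on iCM-Ex replicate 1, at a mean of 10.51 over 29 genes against 7.88 and 7.95 on its group's other arrays. The distance between positive and negative control probes, a measure of how well an array separates signal from background, was 2.47 to 3.21 on the iCM arrays and 3.63 to 4.01 on the iCM-Ex arrays. These ranges do not overlap, so that this measure moves with the groups compared. Its part in the gene differences was not tested beyond a fit with it as a covariate. That fit compares the groups at values they do not share, and it leans on iCM replicate 2, which had the lowest value (2.47). The medians it gives below are therefore no firm check of direction. The number of arrays, 3 in each group, limits the precision of every value below.

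**Figure D1:**
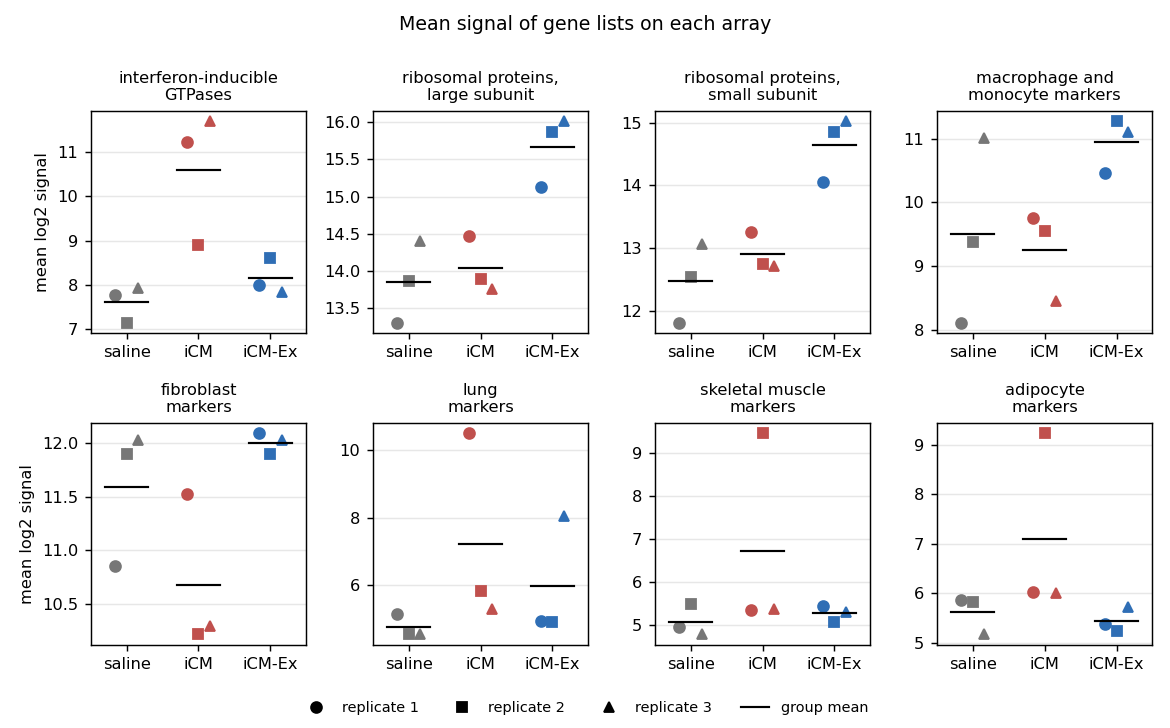
Mean log2 signal of the members of 8 gene lists (y axis) on each array, by group (x axis), where each symbol is 1 array and the line is the group mean. Ribosomal protein genes lie higher on all 3 iCM-Ex arrays than on any other array. The interferon-inducible GTPases are raised on the iCM arrays, least on replicate 2. Lung genes stand out on iCM replicate 1 and iCM-Ex replicate 3, and skeletal muscle and fat genes on iCM replicate 2.

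Hearts given exosomes differed from hearts given cells at 208 genes. Of these, 155 (0.795% of all genes) were higher and 53 (0.272%) were lower with exosomes, past an adjusted p of 0.05 (limma, Benjamini-Hochberg over all 19505 genes). The genes that rose included 15 ribosomal proteins of the cytosol, several tubulins, the growth factor Igf1 and the natriuretic peptide Nppb. The genes that fell included 3 interferon-inducible GTPases and the endothelial genes Car4, Aqp1 and Dll4. The size of the called differences ran from 1.27 to 5.62 with a median of 2.38, whereas the median difference over all genes was -0.04. In all 208 genes the 3 iCM-Ex arrays lay wholly above or wholly below the 3 iCM arrays. Such separation was found for 10.2% of all genes upwards and 10% downwards, so by itself it is common. The called genes were bright: their median signal was 11.05 for those higher and 9.91 for those lower, and 126 of the 155 and 37 of the 53 came from the brightest of 5 equal bins of genes by signal. The median difference was 0.24 in that bin and -0.11 in the dimmest. Over all genes 46.1% were higher with exosomes, and in the brightest bin 58.4% were. The counts of list members higher or lower given below are to be read beside these shares. In 9 of the 208 genes a group mean lay below the array's negative controls, and the size of those differences is uncertain.

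The counts depend on single arrays and on the saline arrays, which share in the estimate of the spread. With only the 6 iCM and iCM-Ex arrays fitted, 10 genes were higher and 3 lower. Leaving out iCM-Ex replicate 2 left 0 genes past the threshold, and leaving out iCM-Ex replicate 3 left 0 higher and 1 lower. The direction of the 208 genes could not turn on leaving out 1 array, since their iCM-Ex and iCM arrays do not overlap. The calls also fell to 0 with the control separation of each array as a covariate, where the 208 genes kept their direction at a median size of 1.83. Omitting the 3 arrays with lung, muscle or fat transcripts left 1 iCM array and 2 iCM-Ex arrays, and 0 genes passed in that fit. Quantile normalisation gave 158 higher and 138 lower genes, so the excess of rises over falls depends on the scaling. Of the 55 called genes chosen for naming, 9 lost the call under it: Rpl21, Rps16, Rps25, Rps29, Eif5a, Eif2s2, Rheb, Prdx1 and Rab7.

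**Figure D2:**
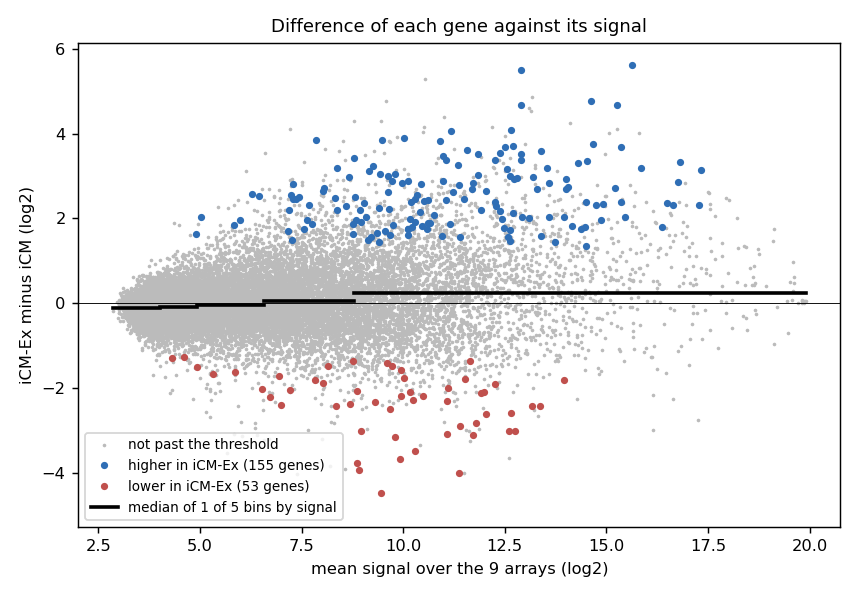
Difference of each of 19505 genes between iCM-Ex and iCM (y axis, log2) against its mean signal over the 9 arrays (x axis, log2). Coloured points passed an adjusted p of 0.05, 155 upwards and 53 downwards, and the black steps give the median difference in each of 5 equal bins of the genes by signal, from -0.11 in the dimmest to 0.24 in the brightest.

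Saline hearts lay nearer to exosome hearts than to cell hearts for most of these genes. Among the 155 genes higher with exosomes, saline was nearer iCM-Ex for 124 (80.0%). Their median difference from saline was -1.98 in iCM and 0.53 in iCM-Ex. Among the 53 lower genes saline was nearer iCM-Ex for 34 (64.2%), with medians of 1.14 in iCM and -0.80 in iCM-Ex. Over all genes the share nearer iCM-Ex was 55.8%. Against saline, 1.34% of all genes were called higher and 2.33% lower in iCM, and 0.22% higher and 0.128% lower in iCM-Ex. These contrasts share arrays with the comparison of exosomes and cells, so they place the differences and are no separate evidence for them.

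Interferon-inducible GTPases formed the group with the lowest median. These proteins are switched on by interferon and attack the vacuoles and membranes of intracellular pathogens. Of 17 measured, 16 were lower with exosomes, 11 without overlap of the arrays, and 3 passed the test (Iigp1, Gbp4 and Irgm1). The median difference was -2.24. Some of these genes are near copies of one another, and how far the probes tell them apart was not tested. The upstream sequences of the 6 non-overlapping members with a promoter entry are shown because they share a short element. Each is the 250 bases before the transcription start in RefSeq on GRCm38.p6, 5′ to 3′ on the gene's own strand, and capitals mark GAAANNGAAA, the core of the interferon-stimulated response element, read on either strand with overlapping copies counted. They lie at chr11:48871421-48871670 on the minus strand for Irgm1, chr11:58199306-58199555 on the plus strand for Igtp, chr11:58214727-58214976 on the plus strand for Irgm2, chr11:49064213-49064462 on the minus strand for Tgtp2, chr3:142559794-142560043 on the plus strand for Gbp3 and chr3:142530086-142530335 on the plus strand for Gbp7.
Irgm1: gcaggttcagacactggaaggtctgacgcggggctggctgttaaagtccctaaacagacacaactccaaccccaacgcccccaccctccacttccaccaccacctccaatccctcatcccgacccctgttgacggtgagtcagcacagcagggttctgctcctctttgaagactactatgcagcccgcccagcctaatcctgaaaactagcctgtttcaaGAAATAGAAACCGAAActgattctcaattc
Igtp: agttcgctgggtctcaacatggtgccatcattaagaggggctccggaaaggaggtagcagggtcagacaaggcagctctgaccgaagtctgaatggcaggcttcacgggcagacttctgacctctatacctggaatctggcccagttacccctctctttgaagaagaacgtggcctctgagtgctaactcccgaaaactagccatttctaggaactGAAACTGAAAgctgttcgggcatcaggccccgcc
Irgm2: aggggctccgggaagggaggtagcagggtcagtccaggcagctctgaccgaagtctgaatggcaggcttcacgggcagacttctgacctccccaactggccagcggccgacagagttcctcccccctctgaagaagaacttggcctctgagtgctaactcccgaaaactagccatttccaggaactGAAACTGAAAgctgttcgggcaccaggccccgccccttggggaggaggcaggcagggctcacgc
Tgtp2: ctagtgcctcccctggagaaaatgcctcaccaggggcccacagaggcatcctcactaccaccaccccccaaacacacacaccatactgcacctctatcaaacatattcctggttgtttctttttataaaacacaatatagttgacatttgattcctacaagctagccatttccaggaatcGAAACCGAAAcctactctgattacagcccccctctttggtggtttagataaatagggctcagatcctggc
Gbp3: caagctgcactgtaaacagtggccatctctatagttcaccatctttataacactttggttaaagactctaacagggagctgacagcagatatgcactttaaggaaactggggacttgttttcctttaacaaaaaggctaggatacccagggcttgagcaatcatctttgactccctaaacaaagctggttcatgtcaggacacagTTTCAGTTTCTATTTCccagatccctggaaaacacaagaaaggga
Gbp7: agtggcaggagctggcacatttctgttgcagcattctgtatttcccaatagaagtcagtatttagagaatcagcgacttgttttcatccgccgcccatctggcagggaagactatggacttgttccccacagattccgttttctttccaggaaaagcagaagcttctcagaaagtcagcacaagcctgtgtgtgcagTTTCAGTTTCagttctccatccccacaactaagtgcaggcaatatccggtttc
The capitals form 1 block in each, which in Irgm1 and Gbp3 holds 2 overlapping copies. The element reads on the gene's own strand in the first 4 and on the opposite strand in Gbp3 and Gbp7. Only 7 of the 17 GTPase genes had a RefSeq promoter, and Iigp1 and Gbp4 were not among them. All 7 held the element in this window of at least 1 entry, against 3.47% of the 15691 measured genes with one. The list was chosen as interferon-inducible genes, some of them near copies. The share of 7 in 7 follows from that choice and is no result of these arrays. Over the called genes it was found in 2 of the 46 lower genes with a promoter (4.35%) and in 5 of the 133 higher genes (3.76%). A match describes the letters and says nothing about binding.

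Iigp1, a GTPase of the parasite-containing vacuole, read 13.74, 10.77 and 13.60 on the iCM arrays and 8.18, 9.16 and 7.37 on the iCM-Ex arrays, beside 7.97, 6.69 and 7.58 with saline. It fell by 4.47 ± 0.76 on the log2 scale (SE; limma adjusted p = 0.0355). Irgm1, a regulator of the same family, read 13.87, 11.15 and 13.63 with iCM, 9.20, 9.61 and 9.37 with iCM-Ex and 8.34, 7.97 and 9.43 with saline. All 3 iCM arrays were above all 6 others for both genes, and iCM replicate 2 was the lowest of its group. Irgm1 differed by -3.49 ± 0.65 (limma adjusted p = 0.0399). Gbp4, a guanylate-binding protein, read 14.56, 12.59 and 15.50 with iCM, 10.02, 11.03 and 9.58 with iCM-Ex and 9.59, 8.87 and 10.58 with saline, a difference of -4.01 ± 0.71 (limma adjusted p = 0.0386). Among the relatives that missed the threshold, Igtp at -3.83 ± 0.84, Tgtp2 at -3.34 ± 0.86 and Irgm2 at -2.81 ± 0.73 also did not overlap, whereas 6 of the 17 members did, and Mx1 was higher by 0.22 ± 0.74. Against saline, 8 of the 17 GTPases were higher in iCM hearts past the threshold and 0 were in iCM-Ex hearts. The family's median ranged from -2.98 to -1.73 when single arrays were left out.

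Other interferon-stimulated genes lay on both sides of 0. Of 37 antiviral effectors and nucleic acid sensors 13 were higher and 24 lower, with 0 past the threshold and a median of -0.32. Stat2, a transcription factor of the type I interferon response, read 10.09, 8.77 and 10.89 with iCM and 7.44, 8.31 and 7.18 with iCM-Ex, a difference of -2.27 ± 0.56 (limma adjusted p = 0.0883). Isg20, an RNA exonuclease, went the other way at 7.81, 6.77 and 7.18 against 9.51, 10.23 and 10.11 (limma adjusted p = 0.0582). The peptide transporter subunit Tap2, which loads MHC class I, read 8.06, 7.27 and 8.22 with iCM and 6.30, 6.39 and 6.30 with iCM-Ex, without overlap (limma adjusted p = 0.0913). Among the 15 genes of MHC class I and peptide loading, 11 were lower and 0 passed the test. Without iCM replicate 1, 9 of the 15 were higher, and the median moved from -0.29 to 0.10.

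Ribosomal protein genes read higher with exosomes. Of 33 proteins of the large cytosolic subunit, 32 were higher and 10 passed the test, and of 23 of the small subunit, all were higher and 5 passed. The medians were 1.59 and 1.79. The array means of the large subunit were 14.48, 13.89 and 13.76 with iCM, 15.14, 15.87 and 16.01 with iCM-Ex, and 13.31, 13.86 and 14.40 with saline. Saline was nearer iCM than iCM-Ex for all but 7 of the 33 large-subunit genes and for all 23 of the small subunit. Against saline, 7 of each list were higher in iCM-Ex past the threshold, beside 2 higher and 1 lower of the large subunit and 3 higher of the small subunit in iCM. Rpl6 was one of the exceptions, with a difference from saline of -2.13 in iCM (limma adjusted p = 0.0158) and -0.10 in iCM-Ex. Most such genes have processed copies in the genome, and probe signal from them cannot be separated here.

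Rpl15, in the large subunit, read 16.25, 14.16 and 14.81 with iCM, 17.78, 18.68 and 18.76 with iCM-Ex and 17.00, 16.72 and 17.23 with saline, a rise of 3.33 ± 0.50 (limma adjusted p = 0.0249). Rpl10a read 13.17, 13.07 and 12.68 with iCM and 14.95, 16.95 and 16.91 with iCM-Ex, and its saline arrays, at 13.66, 13.20 and 14.13, lay close to iCM. Rps14, in the small subunit, read 11.25, 11.27 and 10.10 with iCM, 13.34, 14.98 and 14.87 with iCM-Ex and 9.99, 9.62 and 11.14 with saline. It was higher with exosomes than with cells by 3.53 ± 0.55 (limma adjusted p = 0.0275) and than with saline by 4.15 (limma adjusted p = 0.029). Rps25 read 13.46, 13.54 and 13.37 with iCM and 14.50, 15.24 and 14.99 with iCM-Ex, and its difference of 1.45 was 0.90 under quantile normalisation (limma adjusted p = 0.103). On these genes iCM-Ex replicate 1 was usually the lowest of its group. With control separation as a covariate the subunit medians were 0.78 and 1.01, and under quantile normalisation 1.01 and 1.30, so the direction of both lists held while the counts past the threshold were 0 in the first and 3 and 1 in the second.

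Translation factors followed in part. Of 31 initiation and elongation factors 22 were higher and 6 passed the test, with a median of 0.63 that became -0.03 with control separation as a covariate. Eif3k, a subunit of the complex that brings mRNA to the small ribosomal subunit, read 11.50, 10.98 and 11.39 with iCM and 13.28, 14.18 and 15.19 with iCM-Ex, a rise of 2.92 ± 0.47 (limma adjusted p = 0.0294). Eif3m, of the same complex, rose by 2.39 ± 0.42 (limma adjusted p = 0.0386). Of 11 subunits of this complex, set out after their values were seen, 7 were higher and 3 passed, with a median of 0.19. Eif2s2, the beta subunit of the factor that carries the initiator tRNA, read 13.78, 13.96 and 13.54 with iCM and 14.94, 15.35 and 15.06 with iCM-Ex. The rise was 1.36 ± 0.26 (limma adjusted p = 0.045), and under quantile normalisation the difference was 0.77 and missed the threshold (limma adjusted p = 0.219). Of 49 mitochondrial ribosomal proteins, 38 were higher and 1 passed, Mrpl33 at 11.67, 10.18 and 11.38 against 13.27, 15.45 and 15.62.

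**Figure D3:**
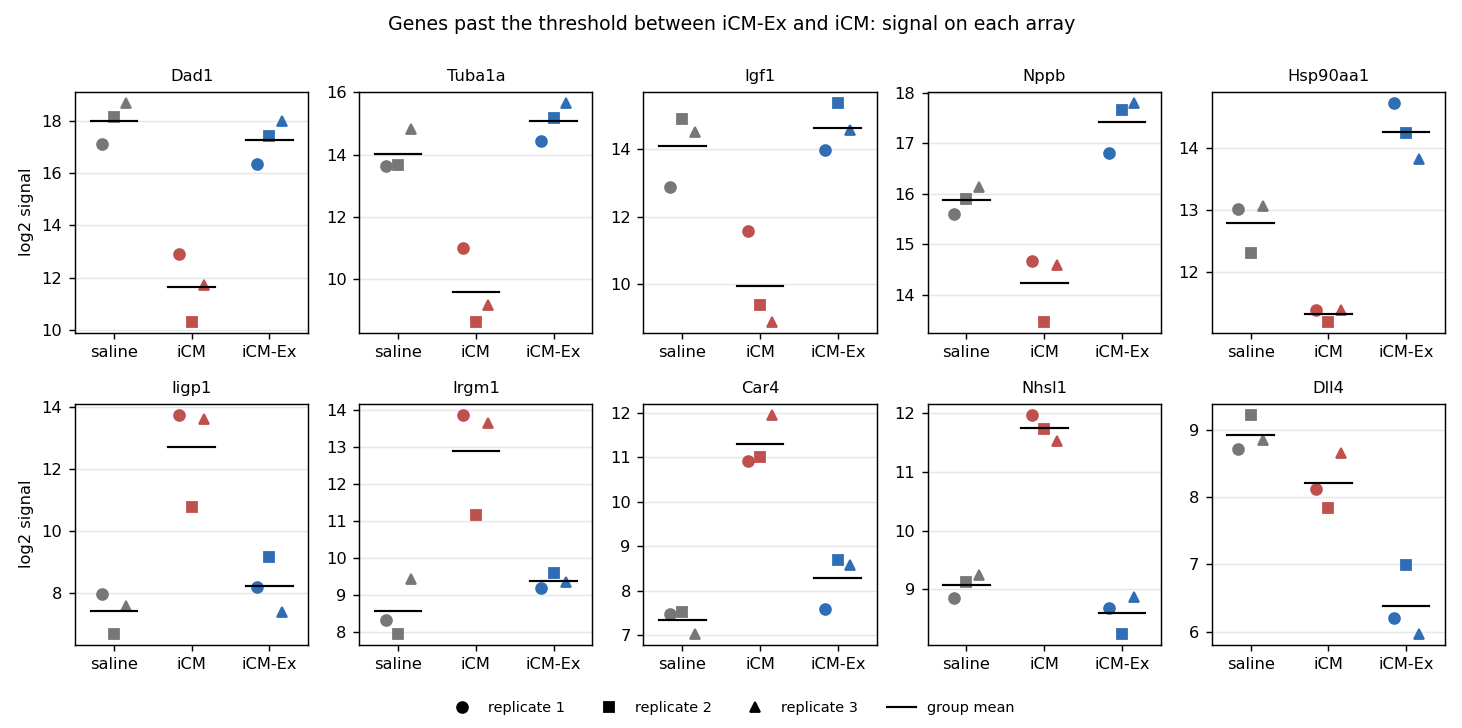
Log2 signal (y axis) of 10 genes past the threshold on each array, by group (x axis), where symbols are replicates and lines are group means. The upper 5 genes were higher with exosomes than with cells and the lower 5 were lower. For Dad1 and Igf1 the saline arrays lie near iCM-Ex, for Iigp1, Irgm1 and Nhsl1 they also lie near iCM-Ex, and for Dll4 the iCM-Ex arrays lie below both other groups.

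The largest rises were genes that were low in cell-injected hearts. Dad1, a subunit of the oligosaccharyltransferase that attaches sugar chains to new proteins, read 12.89, 10.31 and 11.72 with iCM, 16.36, 17.43 and 18.01 with iCM-Ex and 17.11, 18.16 and 18.69 with saline. It rose by 5.62 ± 0.67 (limma adjusted p = 0.0126), and iCM lay below saline by 6.35 (limma adjusted p = 0.00397). Tuba1a, an alpha tubulin of the microtubules, read 11.004, 8.61 and 9.14 with iCM and 14.43, 15.18 and 15.67 with iCM-Ex, a rise of 5.51 ± 0.61 (limma adjusted p = 0.0125). Its relative Tuba1b rose by 4.68 ± 0.81 (limma adjusted p = 0.0373), though alpha tubulins are near-identical and their probes may share signal. Cops9, a small subunit of the COP9 signalosome that regulates ubiquitin ligases, rose by 4.78 ± 0.73 (limma adjusted p = 0.027). Mpv17, a mitochondrial inner membrane protein, and Tmem47, a membrane protein of cell junctions, rose by 4.09 and 4.06. Tmem47 read 9.32, 7.74 and 7.80 with iCM and 12.28, 12.47 and 12.28 with iCM-Ex, with saline between 12.52 and 13.28. The remaining rises of the leading 12 were Alkbh6, Ppdpf, the nuclear envelope protein emerin (Emd) and the cytochrome b5 reductase Cyb5r3, at 3.76 to 3.86, beside Igf1 and Uqcrc2, which are described with their groups.

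Igf1, the insulin-like growth factor that heart macrophages and fibroblasts secrete, read 11.58, 9.40 and 8.89 with iCM, 13.97, 15.38 and 14.56 with iCM-Ex and 12.88, 14.91 and 14.53 with saline. It was higher with exosomes than with cells by 4.68 ± 0.73 (limma adjusted p = 0.0275) and lower with cells than with saline by 4.15 (limma adjusted p = 0.018). Of 36 genes of insulin and mTOR signalling, the pathway that growth factors of this kind engage, 15 were higher, with a median of -0.24. Rheb, the GTPase that activates mTOR, read 12.10, 12.61 and 12.71 with iCM and 13.80, 14.05 and 14.31 with iCM-Ex and rose by 1.58 ± 0.28 (limma adjusted p = 0.0386). Tsc1, part of the complex that switches Rheb off, read 8.46, 8.75 and 8.92 with iCM and 7.25, 7.48 and 6.9998 with iCM-Ex and fell by 1.47 ± 0.27 (limma adjusted p = 0.0386). With Igf1 these were the only members of this list past the threshold in the fit of all 9 arrays.

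Listed macrophage markers were higher on all 3 exosome arrays than on any cell array when averaged, but none of them passed the test. Of 28 markers 21 were higher, 15 without overlap and 0 past the threshold, with a median of 1.95. The array means were 9.76, 9.56 and 8.44 with iCM and 10.47, 11.28 and 11.10 with iCM-Ex. Saline arrays spread from 8.11 to 11.01 and overlapped both groups. With control separation as a covariate the median was 0.90. Csf1r, the receptor that macrophages need to survive, read 10.38, 9.90 and 8.74 with iCM and 11.39, 13.05 and 12.97 with iCM-Ex (limma adjusted p = 0.135). The fractalkine receptor Cx3cr1 read 5.79, 4.12 and 3.97 against 7.47, 8.63 and 8.44, with a difference of 3.55 ± 0.77 (limma adjusted p = 0.0613). The iCM values of Cx3cr1 on replicates 2 and 3 lay below the negative controls, so the size of that difference is uncertain. Cd163, a scavenger receptor of resident macrophages, ran the other way, at 7.31, 8.46 and 9.79 against 6.39, 6.96 and 7.27. Of 11 genes of MHC class II, with which macrophages present antigen, 10 were higher with 0 past the threshold and a median of 1.27, which was 0.77 without iCM replicate 3. H2-Ab1 read 10.84, 10.46 and 8.42 with iCM and 12.04, 12.64 and 11.32 with iCM-Ex (limma adjusted p = 0.129). Of 26 chemokines 21 were higher, 7 without overlap, and 0 passed.

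Fibroblast and matrix genes also read mostly higher with exosomes, with no gene of either list past the test. Of 21 fibroblast markers 17 were higher with exosomes, 11 without overlap, with 0 past the threshold and a median of 1.48. Their array means were 11.53, 10.22 and 10.29 with iCM, 12.09, 11.89 and 12.03 with iCM-Ex and 10.85, 11.90 and 12.02 with saline. Of 35 matrix glycoproteins, proteoglycans and crosslinking enzymes 32 were higher, with 0 past the threshold and a median of 1.36. The matrix median was 0.82 without iCM replicate 3, and with control separation as a covariate the fibroblast and matrix medians were 0.59 and 0.61. Fbln5, which organises elastic fibres, read 11.84, 9.10 and 9.11 with iCM, 13.54, 13.19 and 13.44 with iCM-Ex and 12.31, 14.06 and 14.66 with saline (limma adjusted p = 0.0678). Dermatopontin (Dpt), which binds collagen fibrils, read 17.18, 14.50 and 14.74 with iCM and 17.63, 18.46 and 18.87 with iCM-Ex (limma adjusted p = 0.0869). In both genes iCM replicates 2 and 3 were lower than iCM replicate 1. Of 21 collagen chains 11 were higher, with 0 past the threshold and a median of 0.03. Decorin (Dcn) was at the top of the scale on all 3 iCM-Ex arrays and gives no measure of change. Among 31 genes of TGF-beta and BMP signalling 23 were higher and 1 passed, Id3, a BMP-induced inhibitor of differentiation factors, at 7.59, 5.98 and 6.70 against 10.04, 9.72 and 10.06 (limma adjusted p = 0.0492).

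Most endothelial genes read lower with exosomes than with cells. Of 25 markers 19 were lower, 9 without overlap, and 2 passed the test, with a median of -0.52. Car4, a carbonic anhydrase on the surface of capillaries, read 10.92, 10.997 and 11.96 with iCM, 7.60, 8.69 and 8.57 with iCM-Ex and 7.46, 7.52 and 7.03 with saline. It fell by 3.01 ± 0.39 (limma adjusted p = 0.0146). Car4 is also a gene of lung capillaries, and the lung list averaged 10.51, 5.83 and 5.29 on the iCM arrays and 4.91, 4.90 and 8.05 on the iCM-Ex arrays. The part of lung tissue in the Car4 difference was not tested. The water channel Aqp1 read 12.32, 13.29 and 13.90 with iCM and 10.88, 11.40 and 10.97 with iCM-Ex, a difference of -2.09 ± 0.38 (limma adjusted p = 0.0386). The junction genes Cdh5, at 13.17, 13.55 and 13.72 against 12.16, 12.52 and 12.15, and Pecam1, at 12.11, 11.58 and 12.41 against 11.24, 11.20 and 11.01, did not overlap but missed the threshold (limma adjusted p = 0.0629 and 0.187). Endoglin (Eng), a TGF-beta co-receptor of vessels, ran the other way by 2.44 ± 0.67. Outside this list, the endothelial connexin Gja4 passed as a rise of 2.03 ± 0.33 (limma adjusted p = 0.0327). Its iCM mean lay below the negative controls, so the size of that rise is uncertain.

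Among 28 genes of VEGF and Notch signalling, which guide vessel sprouting, 12 were lower and 1 passed. Dll4, the Notch ligand of arterial and sprouting endothelium, read 8.12, 7.84 and 8.65 with iCM, 6.21, 6.99 and 5.97 with iCM-Ex and 8.72, 9.23 and 8.85 with saline. The difference between exosomes and cells was -1.81 ± 0.35 (limma adjusted p = 0.0443), and that between exosomes and saline was -2.54 (limma adjusted p = 0.029). Here the exosome group was the one apart from saline. Vegfa, the main vessel growth factor, was the member with the lowest difference at -1.87 ± 0.39 (limma adjusted p = 0.0559), with 10.94, 11.26 and 12.48 in iCM, 10.01, 9.70 and 9.34 in iCM-Ex and 9.44 to 9.60 in saline.

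Genes of the cardiomyocyte lay on both sides of 0. Nppb, the B-type natriuretic peptide that ventricular muscle makes under wall stress, read 14.66, 13.46 and 14.59 with iCM, 16.80, 17.66 and 17.80 with iCM-Ex and 15.60, 15.89 and 16.13 with saline. It rose by 3.19 ± 0.40 (limma adjusted p = 0.0126), and saline lay between the groups without overlapping either. Its relative Nppa was at the top of the scale on all 3 iCM-Ex arrays. Of 15 natriuretic peptide and wall stress genes, Nppb was the 1 that passed, and 9 were higher. Of 37 sarcomere and Z-disc genes 17 were higher and 0 passed, with a median of -0.11 that turned to 0.01 without iCM replicate 3. Titin (Ttn), the molecular spring of the sarcomere, read 16.46, 17.39 and 18.05 with iCM and 15.61, 14.35 and 12.98 with iCM-Ex (limma adjusted p = 0.0718), whereas Fhl1, a LIM protein, read 13.36, 12.04 and 13.35 against 14.26, 14.47 and 14.70 (limma adjusted p = 0.0772). The cardiac myosin Myh6 read 17.09, 17.17 and 19.13 against 16.73, 15.65 and 14.24 (limma adjusted p = 0.153). Of 33 calcium cycling and ion channel genes 26 were lower, with a median of -0.51 and 0 past the threshold.

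Respiratory chain genes held called subunits in opposite directions. Of 42 subunits of complexes II to V 34 were higher and 2 passed, with a median of 0.66. Uqcrc2, a core subunit of complex III, read 6.12, 8.22 and 8.25 with iCM and 10.51, 11.95 and 11.83 with iCM-Ex, a rise of 3.90 ± 0.66 (limma adjusted p = 0.0355). Cox6a1, of cytochrome oxidase, rose by 3.38 ± 0.62 (limma adjusted p = 0.0386). Of 36 complex I subunits 23 were higher and 1 passed, and that was a fall: Ndufs5 read 14.56, 15.20 and 15.85 with iCM, 12.80, 12.70 and 12.83 with iCM-Ex and 11.21, 12.23 and 11.19 with saline, a difference of -2.42 ± 0.39 (limma adjusted p = 0.0308). On the array means of the complex I list iCM replicate 3, at 14.42, lay above all others. The complex I median of 0.44 turned to -0.04 without iCM replicate 1, and with control separation as a covariate it was -0.22 and that of complexes II to V was -0.04. Of 25 genes of fatty acid uptake and oxidation 17 were lower and 0 passed, and their median of -0.57 turned to 0.10 without iCM replicate 3.

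Chaperone, antioxidant and protein turnover genes included 7 called rises. Hsp90aa1, the inducible cytosolic chaperone, read 11.39, 11.20 and 11.38 with iCM, 14.74, 14.24 and 13.83 with iCM-Ex and 13.02, 12.31 and 13.07 with saline. It rose by 2.95 ± 0.32 (limma adjusted p = 0.0125), with saline between the groups. It was the 1 member of 31 chaperone and unfolded protein response genes past the threshold. Gpx3, the secreted glutathione peroxidase, read 14.81, 14.83 and 15.66 with iCM, 17.50, 18.54 and 18.68 with iCM-Ex and 18.27, 18.57 and 19.00 with saline, so that the iCM group was the one apart. Gpx3 rose by 3.14 ± 0.39 (limma adjusted p = 0.0126), its intracellular relative Gpx1 by 3.58 ± 0.62 (limma adjusted p = 0.0383) and the peroxiredoxin Prdx1 by 1.81 ± 0.36 (limma adjusted p = 0.0488). Under quantile normalisation Prdx1 differed by 1.02 (limma adjusted p = 0.135). Of 26 antioxidant enzymes 20 were higher and these 3 passed. Of 30 proteasome subunits 22 were higher and 2 passed, Psma4 by 2.01 ± 0.36 and Psmb2 by 2.62 ± 0.49. Of 31 lysosome genes 25 were higher and 1 passed, the proton pump subunit Atp6v0d1, at 8.21, 7.35 and 7.60 against 9.49, 9.55 and 10.70.

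Among genes for vesicle release and uptake, read in the whole tissue, 1 gene passed. Whether their signal came from the heart or from injected material was not tested. Of 27 genes of extracellular vesicles and endosomes 20 were higher and 1 passed, with a median of 0.37. Rab7, the GTPase of late endosomes, read 15.74, 14.64 and 14.88 with iCM, 16.69, 17.60 and 17.93 with iCM-Ex and 17.01, 17.78 and 17.46 with saline, a rise of 2.32 ± 0.41 (limma adjusted p = 0.0386). The exosome tetraspanin Cd63 read 13.71, 13.04 and 12.73 against 14.05, 14.40 and 13.92 (limma adjusted p = 0.235), and syntenin (Sdcbp), which sorts cargo into exosomes, read 13.24, 13.62 and 13.28 against 15.15, 15.75 and 15.84 (limma adjusted p = 0.0629).

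Other falls came from genes of scattered roles. Nhsl1, a regulator of the actin network in cell migration, had the smallest adjusted p of all genes (0.00791, limma): it read 11.98, 11.73 and 11.53 with iCM, 8.68, 8.25 and 8.88 with iCM-Ex and 8.86, 9.13 and 9.24 with saline, and fell by 3.15 ± 0.28. Xanthine dehydrogenase (Xdh), which makes urate, read 13.12, 13.88 and 14.21 with iCM, 10.88, 10.83 and 10.19 with iCM-Ex and 9.95, 11.37 and 11.05 with saline. In both genes iCM was the group apart from saline. Zbtb16, a transcription factor that glucocorticoids induce, read 10.27, 13.35 and 13.04 with iCM and 9.29, 8.15 and 8.21 with iCM-Ex (limma adjusted p = 0.0443). Fam214a, the ceramidase Acer2 and the long non-coding RNA Lncpint fell by 3.92, 3.78 and 3.09, with saline between the groups in the means of each. The cofilin phosphatase Ssh2 fell by 3.02. The flavin monooxygenase Fmo2, which is strong in lung, fell by 3.005 at 15.26, 15.30 and 13.59 against 12.22, 11.24 and 11.69. The part of lung tissue in the Fmo2 difference was not tested. Of 18 clock genes 1 passed, the repressor Nr1d2, at 13.13, 13.61 and 12.82 against 11.87, 10.01 and 9.89. The clock output gene Dbp, at 15.97, 11.68 and 13.24 against 11.22, 11.33 and 10.37, did not (limma adjusted p = 0.167), and no label gives the hour of tissue collection.

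**Figure D4:**
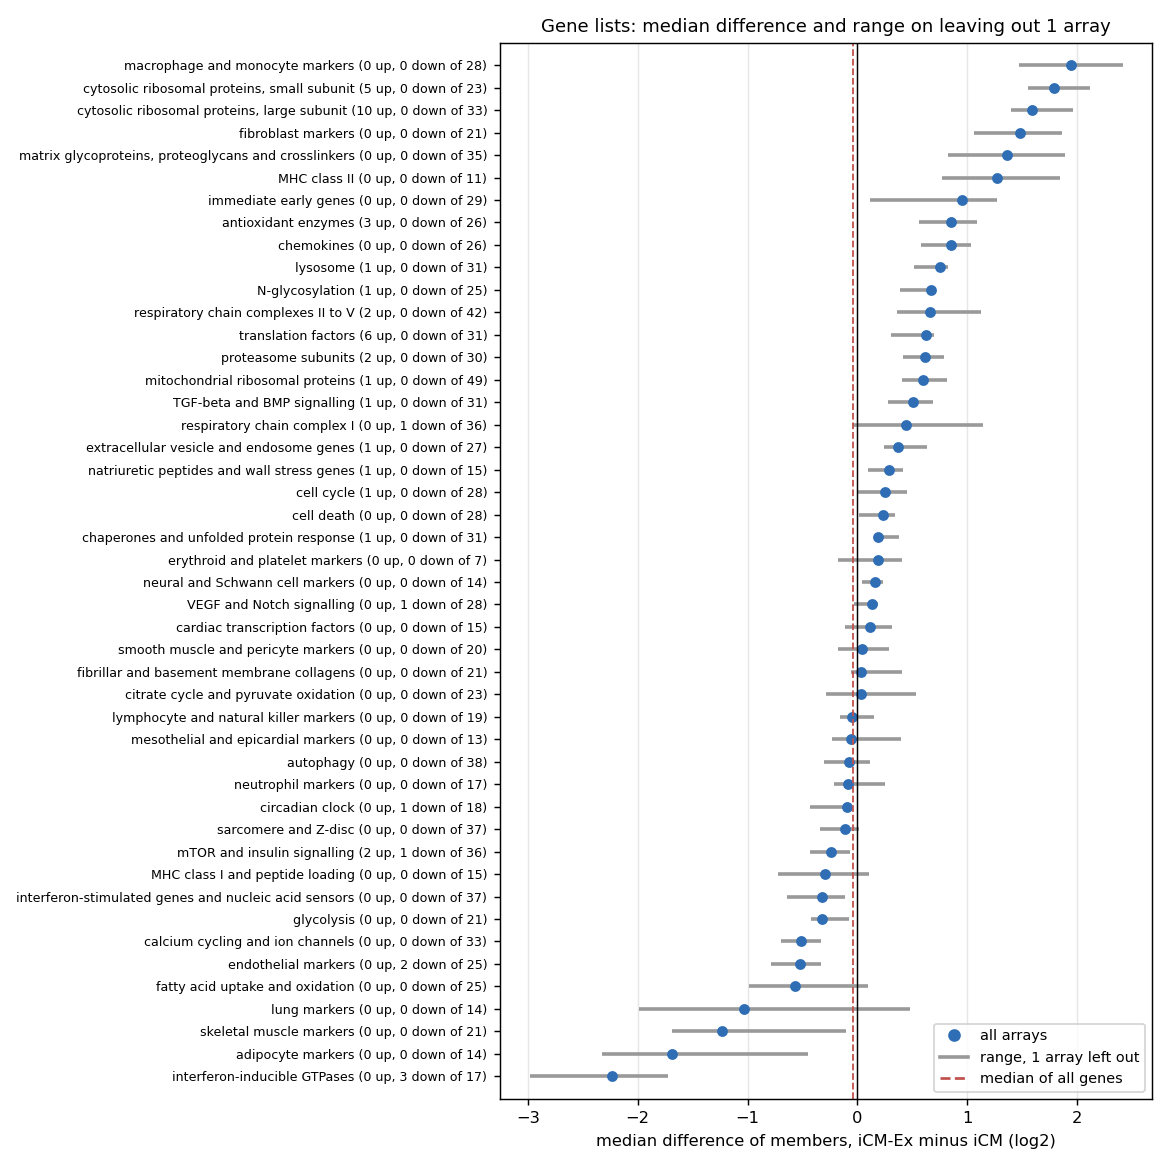
Median difference of the members of 46 gene lists between iCM-Ex and iCM (x axis, log2), with the range when 1 array is left out and the number past the threshold in brackets. The ribosomal, macrophage, fibroblast and matrix lists stay above 0 and the interferon-inducible GTPases stay below 0 over that range, while lung markers cross 0.

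Markers of tissues foreign to the heart muscle were lower with exosomes on balance and rested on few arrays. Lung genes were high on iCM replicate 1 and iCM-Ex replicate 3, and skeletal muscle and fat genes on iCM replicate 2. Of 14 lung genes 13, of 21 skeletal muscle genes 20 and of 14 adipocyte genes all were lower, with 0 past the threshold in each. Without iCM replicate 1 the lung median moved from -1.04 to 0.48, and without iCM replicate 2 the skeletal muscle median moved from -1.23 to -0.10 and the adipocyte median from -1.68 to -0.45. With control separation as a covariate the muscle and adipocyte medians turned to 1.24 and 1.38. The array with these transcripts, iCM replicate 2, also had the lowest control separation, at 2.47 against 3.15 or more on the other arrays. The covariate cannot be told apart from that array here, so the turned signs give no direction. Immediate early genes, transcription factors induced within minutes, were higher in 25 of 29 with 0 past the threshold, and their median of 0.95 became 0.11 without iCM-Ex replicate 1. The part of these transcripts in the called genes was not tested beyond leaving the arrays out. With control separation as a covariate the medians of the mitochondrial ribosomal, proteasome, lysosome, TGF-beta and BMP, and natriuretic peptide lists were 0.08, 0.03, 0.27, 0.18 and 0.06, and the endothelial median was -1.21. Over all 46 lists the median kept its sign in 31 whichever array was left out and in 22 under every alternative.

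**Figure D5:**
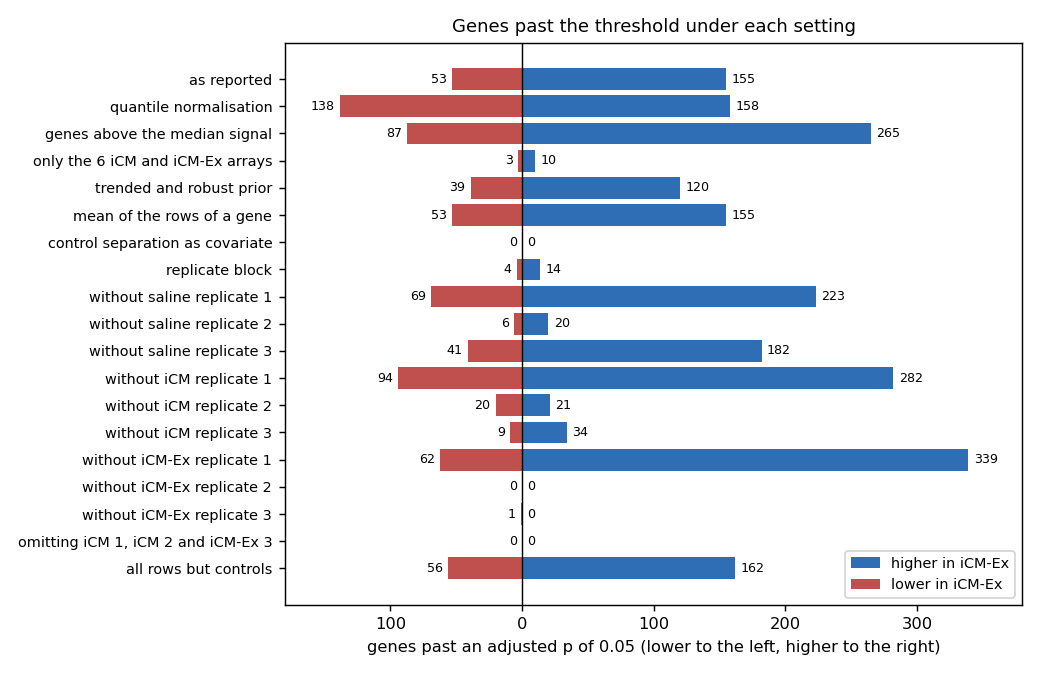
Number of genes past an adjusted p of 0.05 under each setting (y axis), with genes higher in iCM-Ex to the right and lower to the left (x axis, gene count). The counts run from 0 without iCM-Ex replicate 2 to 339 higher without iCM-Ex replicate 1, against 155 higher and 53 lower with all arrays.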

How the data were processed

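The arrays (Clariom S, total RNA) were hybridised with 5.5 µg of labelled cDNA each. The deposited value table holds log2 signals. The submitters' processing notes name Affymetrix Expression Console as the tool the authors used, with no version or summarisation method. The values run from 2.247 to 19.93. The table has 28846 rows, of which 6640 are controls; 19572 rows carry 1 gene symbol and gave 19505 genes after keeping the brightest row of the 55 genes with several. No row was filtered on signal. limma 3.58.1 (R 4.3.3) was fitted to all 9 arrays with 1 mean per group, so that the groups share 1 estimate of the spread (6 residual and 4.23 prior degrees of freedom), and p-values were adjusted over all genes by Benjamini-Hochberg at 0.05. The fit was tested on data simulated with independent errors for each gene. Those data held no array-wide differences, such as foreign tissue or control separation, so the test says nothing about them. Named genes are the 12 largest rises and 12 largest falls past the threshold without overlap, leaving out predicted genes and olfactory or vomeronasal receptors, and per list up to 4 called members or, with none, the 2 smallest p. Other members of a list are named after their values were seen. The 46 gene lists, the members and the comparison were chosen with earlier results of these data known. Alternatives were another normalisation, a signal filter, other spread estimates, a replicate block, a control covariate and omitted arrays. Promoters are RefSeq's on GRCm38.p6.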

Additional observations from a re-analysis of the deposited data

How the results depend on the processing

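All 208 genes kept their direction under quantile normalisation and the control covariate, on arrays that also chose these genes, but the number past the threshold moved widely. The 6-array fit and the replicate block leave the difference of group means unchanged, so they could not turn the direction. Nor could a single omission, since the iCM-Ex and iCM arrays of these genes do not overlap. The count of genes higher in iCM-Ex than iCM was 155 and that of genes lower in iCM-Ex than iCM was 53. Restricting the fit to the 6 iCM and iCM-Ex arrays gave 10 higher and 3 lower, and the replicate block gave 14 and 4. Deviations of same-numbered iCM and iCM-Ex arrays from their group means had correlations of -0.076, -0.141 and 0.005. Those of differently numbered arrays ran from -0.101 to 0.178. With 3 arrays in each group these values cannot settle whether the numbers pair the samples. With control separation as a covariate 0 and 0 genes passed, as without iCM replicates 1 and 2 and iCM-Ex replicate 3, where 1 iCM array and 2 iCM-Ex arrays remained and the lone array was assumed to vary like the other groups. Quantile normalisation gave 158 and 138, and keeping genes above the median signal 265 and 87, with fewer genes tested. Leaving out 1 array gave from 0 to 339 higher and from 0 to 94 lower. Of the 208 genes, 196, 26 and 175 passed without saline replicates 1 to 3, 159, 30 and 34 without iCM replicates 1 to 3, and 167, 0 and 1 without iCM-Ex replicates 1 to 3, so that 0 passed in every one of these fits. The cause was not tested. Fitting all rows but controls, chosen after seeing the data, gave 162 and 56. At an unadjusted p under 0.05, 1636 genes were higher and 1188 lower with all arrays.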

Other observations

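Some families were set out after their values were seen. Of 15 tubulins 13 were higher in iCM-Ex than in iCM and 6 passed (Tuba1a, Tuba1b, Tuba1c, Tubb2a, Tubb4b and Tubb5; limma), with a median of 1.64. Tubb5, a beta tubulin, read 12.18, 9.76 and 9.28 with iCM and 13.16, 13.44 and 14.08 with iCM-Ex. Of 10 subunits of the COP9 signalosome 9 were higher and 2 passed, Cops9 and the catalytic Cops5, which read 8.72, 8.70 and 9.38 with iCM and 10.94, 11.68 and 11.32 with iCM-Ex. Both copies of the complement inhibitor CD59 passed, Cd59a at 3.03 ± 0.56 and Cd59b at 2.51 ± 0.45, though their sequences are alike. The endothelial adhesion receptors Adgrf5 and Adgrl4 fell by 1.90 and 1.80, and for both the saline mean lay nearer iCM, at 12.72 and 14.40 against 12.97 and 14.62 in iCM and 11.07 and 12.82 in iCM-Ex.

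Of the rows without a gene symbol, 24 passed the threshold when all rows but controls were fitted, 17 of them higher in iCM-Ex.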
